A study of Macaca mulatta with 4 samples.

Results

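Hotspot-dense windows were examined in DNase-seq data from rhesus macaque (Macaca mulatta) morulae, the compact balls of cells that form before the blastocyst. Chromosomes 1 to 20 without chromosome 19 were divided into windows of 1 Mb, and the covered length of hotspots in each window was divided by the library's mean over windows. The mean of these multiples over 4 libraries ranked the windows, and the highest 10% were kept. This gave 263 dense windows of 2629, with 63812 of the 327818 hotspots that the 4 lists hold on chromosomes 1 to 20. The density of these windows is therefore what chose them and is described below without a test.

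The libraries came from androgenetic embryos (AG, 2 libraries), whose nuclear genome comes from sperm only, and gynogenetic embryos (GG, 2 libraries), whose nuclear genome comes from the oocyte only. All 4 libraries were of the morula stage, and nuclease digestion was the same in all (5 min at 37 °C with DNase I at 40 U/ml). The labels give no donor animals, strains or number of embryos per library, and nothing in them states that replicates were separate cultures. P-values here therefore cover only the spread among these samples, which may be technical. The lists held 64730 to 93171 hotspots per library at a false discovery rate of 0.01, with positions on the rheMac8 build and a score, but no read counts. Sequencing depth is therefore unknown. Positions are 1-based, and no genes are named because an annotation of rheMac8 was not used here.

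DNase I cuts DNA where nucleosomes are displaced, so a hotspot, a stretch with more cuts than its surroundings, marks promoters, enhancers and other accessible elements. Mammalian chromosomes alternate between gene-rich, GC-rich segments, which replicate early and lie in open chromatin compartments, and gene-poor segments that lie largely in closed compartments. In the preimplantation embryo this organisation is built up anew on the sperm-derived and the oocyte-derived chromosomes after fertilisation. Imprinted genes, which are expressed from only one parental copy, are the best known lasting difference between these chromosomes.

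The dense windows carried more hotspots, and wider ones, than the remaining windows in every library. Hotspots covered 6.72% and 7.26% of their sequence in AG replicates 1 and 2 and 8.61% and 7.89% in GG replicates 1 and 2. In the remaining windows these shares were 1.97%, 2.58%, 3.203% and 2.93%. Number contributed more than width: hotspots per Mb were 2.16 to 2.70 times as frequent inside, while their mean width was 1.24 to 1.27 times as large. The median gap between neighbouring hotspots was 9.61 and 8.96 kb inside against 22.1 and 18.1 kb outside in the AG libraries, and 7.05 and 7.49 kb against 15.0 and 16.5 kb in the GG libraries.

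The densest window lay on chromosome 16 from 7000001 to 8000000. Hotspots covered 124 and 122 kb of it in AG replicates 1 and 2 and 147 and 124 kb in GG replicates 1 and 2, in 81 to 91 separate hotspots per library. The second lay on chromosome 1 from 31000001 to 32000000 and had 119.5 and 125.4 kb in AG libraries and less, 110.7 and 109.8 kb, in GG libraries, so that here both AG libraries were higher even before scaling to the library. The third, on chromosome 4 from 31000001 to 32000000, held more hotspot sequence in GG (135 and 129 kb) than in AG (94.7 and 104 kb) before scaling. Divided by each library's mean, the groups overlapped there, at 3.61 and 3.76 in GG and 3.89 and 3.42 in AG. The fourth, on chromosome 20 from 28000001 to 29000000, was the reverse case: the lengths overlapped, at 106 and 122 kb in AG and 116 and 103 kb in GG, while the scaled values of both AG libraries (4.34 and 4.02) lay above those of both GG libraries (3.09 and 3.01). The other 6 of the 10 densest windows were 3 on chromosome 14, starting at 8000001, 11000001 and 111000001, and 1 each on chromosome 7 at 41000001, chromosome 1 at 25000001 and chromosome 13 at 75000001. Their densities were 3.34 to 3.46 times the mean.

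The choice ended without a gap in density. The dense windows nearest to it were chromosome 2 from 89000001 (1.961 times the mean), chromosome 3 from 127000001 (1.968) and chromosome 8 from 93000001 (1.968). Just outside were chromosome 1 from 188000001 (1.958), chromosome 14 from 122000001 (1.956) and chromosome 3 from 175000001 (1.954). Across all 263 windows the lowest, median and highest values were 1.65, 2.68 and 5.10 times the mean in AG replicate 1 and 1.43, 2.32 and 4.12 in AG replicate 2. They were 1.44, 2.23 and 3.94 in GG replicate 1 and 1.28, 2.25 and 3.83 in GG replicate 2. AG replicate 1 thus stood above the remaining libraries, whose values were close to each other.

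**Figure D1:**
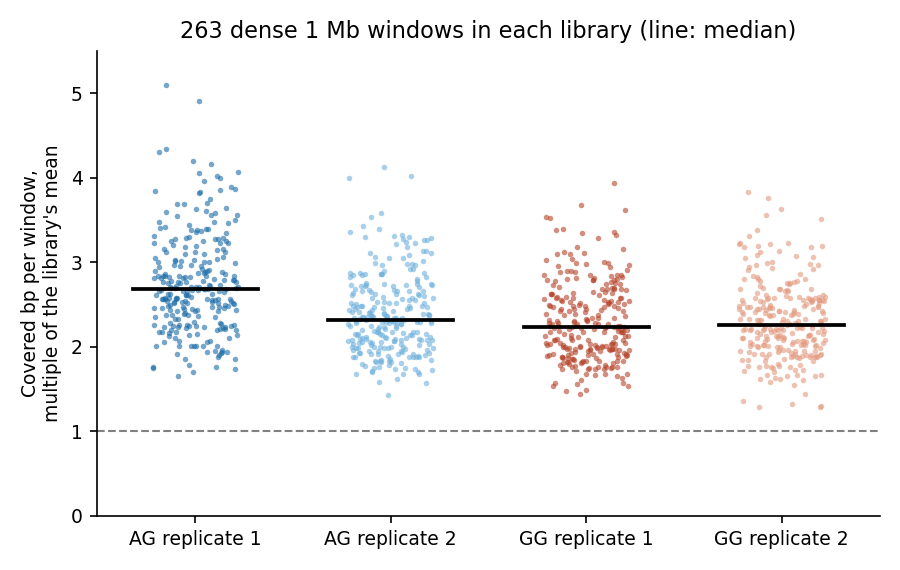
Each point is 1 of the 263 dense windows, plotted for each library as covered bp divided by the library's mean over windows (vertical axis; the dashed line is that mean). The black lines are medians of 2.68, 2.32, 2.23 and 2.25, and AG replicate 1 reaches the highest value, 5.10.

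Hotspots were found along most of the length of dense windows. When each was divided into bins of 100 kb, 81.0 to 90.1% had a hotspot in all 10 bins, depending on the library, against 16.7 to 34.4% of the remaining windows. Dense windows also held more hotspots, with medians of 53 to 65 per window against 18 to 29, which fills more bins by number alone. Whether hotspots were spread more evenly inside was not tested. The fullest bin held a median of 19.7 to 20.8% of a dense window's covered length and at most 39.9%. The widest hotspot of a dense window accounted for a median of 5.33 to 6.10% of it, and for at most 15.4% in any dense window and library.

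Dense windows also lay next to each other. The 263 windows formed 160 runs, and 161 windows (61.2%) were in runs of at least 2. The 12 runs of at least 4 windows held 54 windows, and the 3 longest spanned 6 Mb each. These were chromosome 14 from 7000001 to 13000000, chromosome 16 from 47000001 to 53000000 and chromosome 10 from 79000001 to 85000000. The first of these had 504 and 537 kb under hotspots in AG embryos, and 654 and 646 kb in GG embryos. Windows that bordered a dense window without being dense themselves had a median density of 1.20 times the mean (288 windows), against 0.690 in the 2078 windows further away. Within 5 Mb of position 1 or of the last hotspot of a chromosome, 26 of 209 windows were dense (12.4%), against 9.79% elsewhere. The last windows of chromosomes 10 and 20 were dense although cut short by the last hotspot, the shorter at 0.844 Mb.

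Chromosomes differed widely in their share of dense windows. Chromosome 16, the counterpart of the gene-rich human chromosome 17, had 29 of 78 windows dense (37.2%), followed by chromosome 10 with 18 of 93 (19.4%), chromosome 20 with 14 of 75 (18.7%) and chromosome 1 with 40 of 226 (17.7%). At the other end, chromosome 17 had 1 of 96 (1.04%), chromosome 5 had 5 of 191 (2.62%) and chromosome 18 had 2 of 71 (2.82%).

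Windows chosen from both AG libraries and windows chosen from both GG libraries, which share no list, had 186 of 263 in common (70.7% of each). When 3 libraries chose the windows, the library left out, which had no part in the choice, had medians of 2.62 times its mean in AG replicate 1, 2.29 in AG replicate 2, 2.22 in GG replicate 1 and 2.21 in GG replicate 2. All 263 windows lay above that mean in each case.

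Hotspots in dense windows had higher scores and were found again more often, measured in libraries that did not choose the windows. For each library the windows were chosen from the 2 libraries of the opposite group. The median score percentile within the library's own list was 57.9 inside against 47.1 outside in AG replicate 1 and 59.5 against 47.1 in AG replicate 2. It was 60.8 against 47.1 in GG replicate 1 and 60.7 against 47.0 in GG replicate 2. The difference was 12.6 ± 1.35 percentile points (SD, n = 4 libraries) and positive in 4 of 4, with a two-sided exact sign-flip permutation p of 0.12, the smallest that 4 libraries can give. Both libraries of a group were measured in the same chosen windows, so the 4 differences are not independent. Hotspots inside were also wider, with medians of 1032 to 1050 bp against 853 to 892 bp outside.

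Overlap of at least 1 bp with a hotspot of the other library of the same group was found for 45.4% of hotspots inside and 30.2% outside in AG replicate 1, and 39.8% and 21.9% in AG replicate 2. In GG replicate 1 the shares were 51.0% and 34.3%, and in GG replicate 2 55.8% and 37.9%. The mean difference was 16.6 percentage points over the AG libraries and 17.3 over the GG libraries. The two-sided exact sign-flip permutation test over 4 libraries gave p = 0.12, but both libraries of a group count the same overlapping pairs, so the values amount to 2 pairs of libraries and not to 4 independent ones. It was present at every level of score: within 4 bands of score of equal size it was 8.26 to 16.8 points. The partner library covered 6.34 to 8.24% of the sequence inside and at most 3.23% outside, so overlap by position alone is also more frequent inside, and its part in the difference was not tested.

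**Figure D2:**
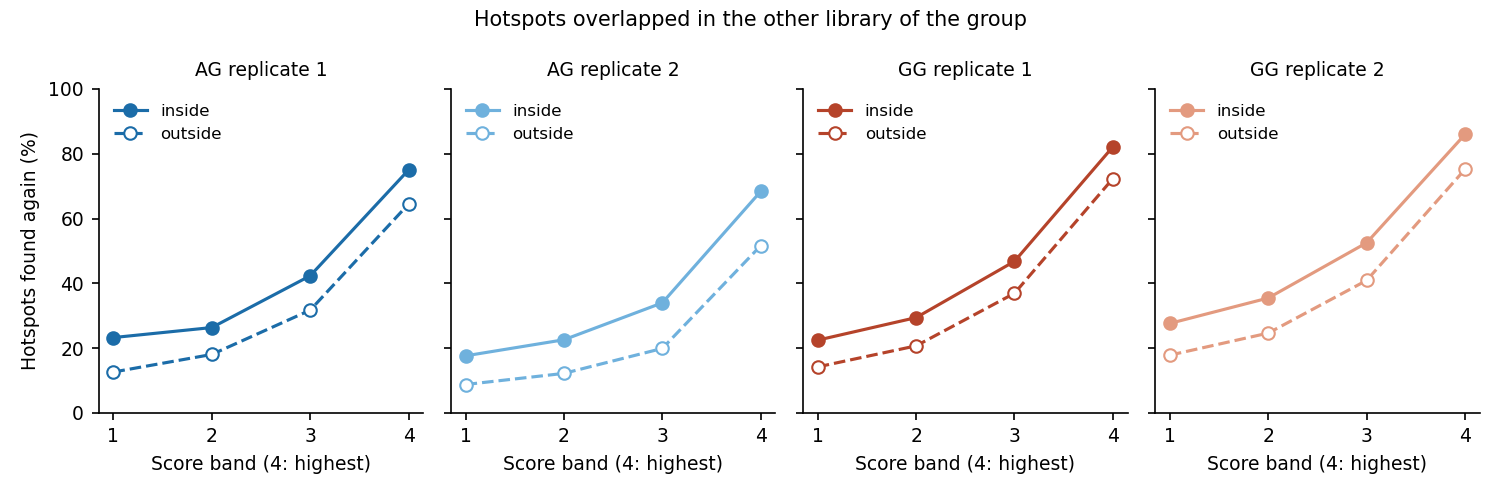
For each library, the vertical axis gives the percentage of hotspots overlapped by at least 1 bp in the other library of its group, in 4 equal bands of the library's scores (horizontal axis, 4 highest). Filled points are hotspots in dense windows chosen from the opposite group, and they lie above the open points (remaining windows) in all 16 comparisons, by 8.26 to 16.8 percentage points.

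Sharing among all libraries is given as a description only, since these windows were chosen for their covered length in the same 4 lists. Overlapping or touching hotspots of the 4 lists were merged, which gave 35603 regions in dense windows and 180266 in the remaining windows. Of the regions in dense windows, 11.6% were found in all 4 libraries, 8.82% in 3, 16.8% in 2 and 62.7% in 1. In the remaining windows these shares were 4.44%, 4.59%, 13.1% and 77.9%. Outside chromosome 19, dense windows thus held 34.1% of all regions found in every library and 13.7% of those found in 1. Each dense window held at least 7 regions common to all 4 libraries, with a median of 14 and at most 38. Such regions took 46.9% and 41.7% of the covered length inside in AG replicates 1 and 2 and 42.7% and 45.5% in GG replicates 1 and 2, against 22.4 to 31.0% outside.

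The regions common to all 4 libraries that ranked best in their weakest library were 2 neighbours at the end of chromosome 10. The one from 92838138 to 92840749 had score ranks of 34 and 18 in AG replicates 1 and 2, then 12 and 13 in GG replicates 1 and 2. The one from 92831473 to 92836518 had ranks of 20, 37, 31 and 21. The next were chromosome 6 from 73809781 to 73812554 (ranks 45, 26, 35 and 37), chromosome 1 from 11385035 to 11389889 (61, 49, 13 and 38) and chromosome 8 from 7534670 to 7539281 (44, 65, 53 and 46). All ranks are out of at least 64712 hotspots, so these 5 were near the top of every list. None of them lay in the 10 densest windows.

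Regions found in only one kind of embryo were also present in dense windows, with 1043 in both AG and neither GG library (AG-only) and 2148 in both GG and neither AG library (GG-only). The ratio of GG-only to AG-only was 2.06 inside and 2.89 outside. In lists shortened by score to an equal number of hotspots, the counts were 1063 AG-only and 1592 GG-only and the ratios 1.498 and 2.101. In lists shortened until each covered the same length, a comparison made once the data were known, the counts were 1218 and 1154 and the ratios 0.947 and 1.29. GG-only regions were thus more numerous in dense windows at equal number but not at equal covered length, and the ratio was lower inside than outside in both. In the full lists, a median dense window had 4 AG-only and 8 GG-only regions, and GG-only regions were the more numerous in 214 of 263 windows. This count was not made in the remaining windows, where the ratio was higher (2.89), so it does not set dense windows apart.

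Single dense windows differed widely. Chromosome 18 from 10000001 to 11000000 had 0 AG-only and 18 GG-only regions, and chromosome 9 from 60000001 to 61000000 had 2 and 19. The window with the most AG-only regions was chromosome 3 from 42000001 to 43000000, with 13 AG-only and 7 GG-only regions, and chromosome 16 from 16000001 to 17000000 had 11 and 3. By rank in the weaker library, the leading AG-only regions were chromosome 16 from 49112515 to 49117881 (ranks 5 and 24), chromosome 16 from 24047939 to 24052866 (118 and 157) and chromosome 10 from 29985772 to 29987044 (198 and 444). The leading GG-only regions were chromosome 8 from 7270699 to 7271953 (ranks 141 and 162 in the GG libraries), chromosome 8 from 7693937 to 7697040 (155 and 200) and chromosome 4 from 7055351 to 7056228 (162 and 318). The 2 on chromosome 8 shared a window with the strong region common to all 4 libraries at 7534670.

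AG and GG embryos were then compared in how much of their open chromatin outside chromosome 19 lay in dense windows. Of the covered length outside chromosome 19, dense windows took 27.6% and 23.8% in AG replicates 1 and 2. In GG replicates 1 and 2 they took 23.1% and 23.1%. Both AG libraries were above both GG libraries, but AG replicate 2 was much nearer to the GG libraries than to AG replicate 1. The means were 25.7 ± 2.65% and 23.1 ± 0.0170% (SD, n = 2 libraries each), a difference of 2.65 percentage points. The two-sided exact permutation p was 0.333, the smallest that 2 libraries against 2 can give. This share is taken from the covered length that also chose the windows, in which AG replicate 1 had the widest spread. The test therefore cannot tell a difference between groups from an effect of the choice. Without AG replicate 1 the difference was 0.781 points. With lists shortened to equal covered length, and windows chosen again from these, it was 0.439 points. Both GG libraries (26.6% and 25.9%) were then above AG replicate 2 (25.7%). In absolute terms the order was the opposite, with 18.4 ± 0.988 Mb covered in dense windows in AG and 21.7 ± 1.33 Mb in GG, since the AG lists covered less of the genome.

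Window by window, the values scaled to each library lay above both GG libraries in both AG libraries in 99 of 263 dense windows and below them in 34. Over all 2682 windows tested, chromosome 19 included, 24.1% were higher in both AG and 28.9% higher in both GG libraries, so the dense windows leaned towards AG (37.6% and 12.9%). On the log2 scale, with an offset of 1000 bp, the median difference (AG minus GG) was 0.13 in dense windows and -0.040 over all windows. Without scaling to the library, the counts were 12 higher in AG and 150 higher in GG, against 6.64% and 50.9% of all windows, and the median of all windows moved to -0.40 and that of the dense windows to -0.23. Scaled by the median instead, 127 were higher in AG and 10 in GG, against 31.1% and 21.7% of all windows. Differences are therefore given relative to the library's mean over windows.

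Over all dense windows this lean was largely lost without AG replicate 1, which also had the shortest list. That list held 64730 hotspots, against 85318 in AG replicate 2 and 93171 and 84865 in GG replicates 1 and 2. Whether list length accounts for the lean was not tested. AG replicate 1 lay above AG replicate 2 in 210 of 263 dense windows, but in 1199 of all 2682. Without AG replicate 1, the remaining AG library was above both GG libraries in 109 dense windows and below both in 97 (38.8% and 39.3% of all windows). The median difference was then 0.030 in dense windows and 0.0056 over all. Where windows were chosen from both replicate 1 libraries and compared in both replicate 2 libraries, the AG value was higher in 133 of 263 (50.6%, against 49.3% of all windows). In the reverse case, compared in the replicate 1 libraries, it was higher in 197 (74.9%, against 45.6% of all windows). With lists shortened to equal covered length, 263 windows were chosen again from the shortened lists. Of these, 71 were higher in both AG and 64 in both GG libraries, each group against 25.7% of all windows. These comparisons of chosen and compared libraries and of equal covered length were added after the data were seen.

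**Figure D3:**
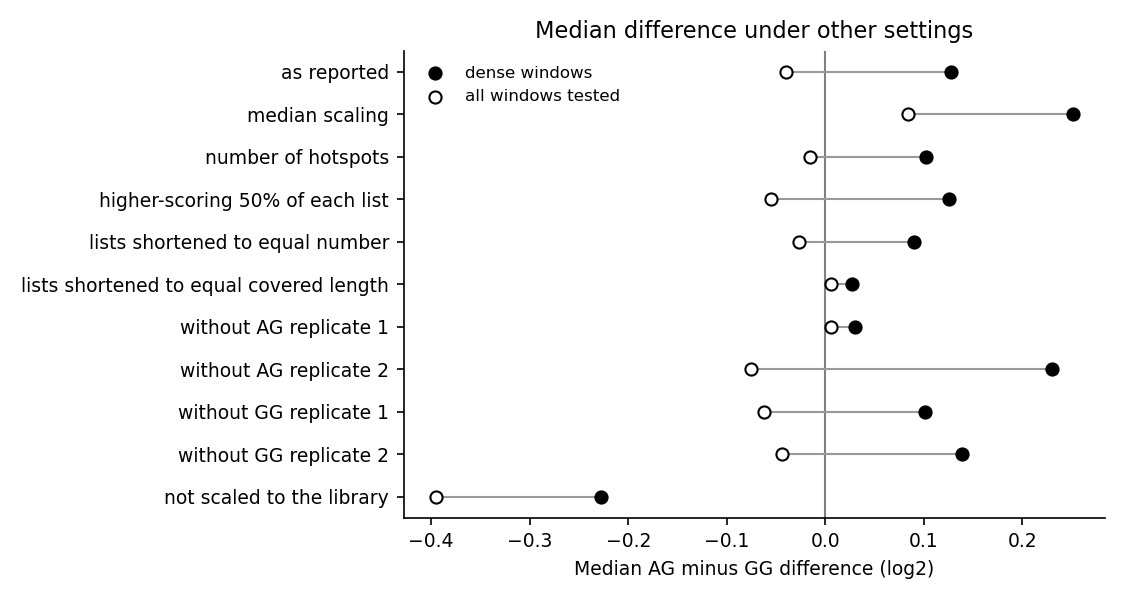
The horizontal axis gives the median AG minus GG difference (log2) over the dense windows (filled) and over all windows tested (open), as reported and under the settings named on the left. Dense windows lie to the right of all windows in each setting, by 0.17 as reported, but by 0.025 without AG replicate 1 and 0.021 with lists shortened to equal covered length. Settings with hotspot number, higher-scoring hotspots or shortened lists choose the dense windows again.

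Across the range of density the same library stood apart. Windows outside chromosome 19 were ordered by density and divided into 10 bands of about equal size. AG replicate 1 had a mean of 2.76 times its overall mean in the densest band, against 2.30 to 2.38 in the other libraries, and 0.150 in the sparsest, against 0.235 to 0.266. Windows higher in both AG libraries made up 37.6% of the densest band and 13.4% of the sparsest, while windows higher in both GG libraries made up 12.9% and 29.5%.

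**Figure D4:**
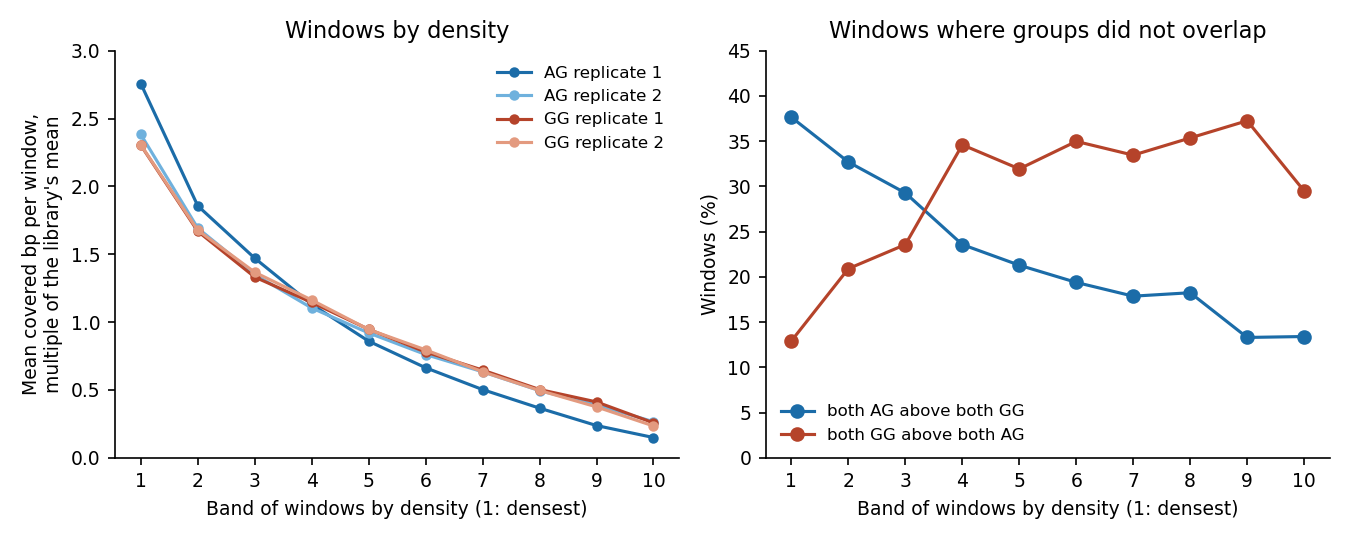
Windows outside chromosome 19 in 10 bands by density (1 densest). On the left, the mean covered bp per window as a multiple of the library's mean, in which AG replicate 1 is steepest, from 2.76 to 0.150. On the right, the percentage of windows in which both AG libraries were above both GG libraries, which falls from 37.6 to 13.4%, and the reverse, which rises from 12.9 to 29.5%.

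The lean was also compared with that of the chromosome around each window. On chromosomes 10, 16 and 20, picked with their values known, 37 of 61 dense windows (60.7%) were higher in both AG and 2 (3.28%) in both GG libraries, against 61.0% and 7.32% of all 246 windows there. By the count higher in AG, the lean of the dense windows was thus about that of these chromosomes themselves. By median log2 difference it was weaker than in their other windows. The medians were 0.24 against 0.41 on chromosome 10, 0.22 against 0.26 on chromosome 16 and 0.43 against 0.54 on chromosome 20. Without AG replicate 1 the counts were 38 and 8 (62.3% and 13.1%), against 72.4% and 12.6% of all windows there. With windows chosen again from lists shortened to equal covered length they were 29 and 8 of 63 (46.0% and 12.7%), against 56.1% and 9.35%. On the remaining chromosomes outside chromosome 19, 62 of 202 dense windows (30.7%) were higher in AG and 32 (15.8%) in GG, against 18.7% and 31.7% of all 2382 windows. Here the counts were 71 and 89 without AG replicate 1, against 33.96% and 42.91% of all windows, and 42 and 56 of 200 at equal covered length, against 21.6% and 28.0%.

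Each library was also centred within each chromosome, an alternative added after the data were seen. Dense windows of the remaining chromosomes then still leaned to AG, while those of chromosomes 10, 16 and 20 leaned to GG. On chromosomes 10, 16 and 20, 8 of the 61 dense windows were then higher in both AG and 20 in both GG libraries, against 21.5% and 24.4% of all windows there. On the remaining chromosomes 82 of 202 were higher in AG and 10 in GG, against 29.26% and 21.998%. Whether this setting keeps its result without AG replicate 1 was not tested.

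On chromosome 20 both AG libraries lay above both GG libraries in all 14 dense windows. Their medians were 2.80 and 2.62 times the mean in AG replicates 1 and 2 and 1.87 and 1.83 in GG replicates 1 and 2, with a median log2 difference of 0.43. Over all windows of chromosome 20, 76.0% were higher in both AG libraries. Without AG replicate 1, the remaining AG library was above both GG libraries in all 14, against 89.3% of all windows of this chromosome. With each library centred within each chromosome, 2 of the 14 were higher in both AG and 3 in both GG libraries, and the median log2 difference was -0.067. On chromosome 16 the counts were 14 higher in AG and 2 in GG of 29 as reported (44.9% and 6.41% of all its windows), and 5 and 13 when centred. On chromosome 10 they were 9 and 0 of 18 (62.4% and 8.60% of all its windows), and 1 and 4 when centred.

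On chromosomes 4, 5, 8, 12 and 18, dense windows with the GG libraries on top outnumbered those with the AG libraries on top. These counts are small, and whether they differ from the shares over each whole chromosome was not tested. On chromosome 4, 4 of 18 were higher in GG and 2 in AG, a weaker lean than over all its windows (46.8% and 5.20%). On chromosome 8, 5 of 11 were higher in GG and 1 in AG, against 35.9% and 16.6% of all its windows. The counts were 2 and 0 of 5 on chromosome 5 (48.2% and 5.24% of all its windows), 3 and 1 of 7 on chromosome 12 (31.7% and 15.9%) and 1 and 0 of 2 on chromosome 18 (21.1% and 25.4%). With median scaling the excess of GG was lost on chromosome 4 (1 GG, 4 AG), chromosome 8 (0 GG, 3 AG), chromosome 12 (1 GG, 2 AG) and chromosome 5 (2 of each).

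**Figure D5:**
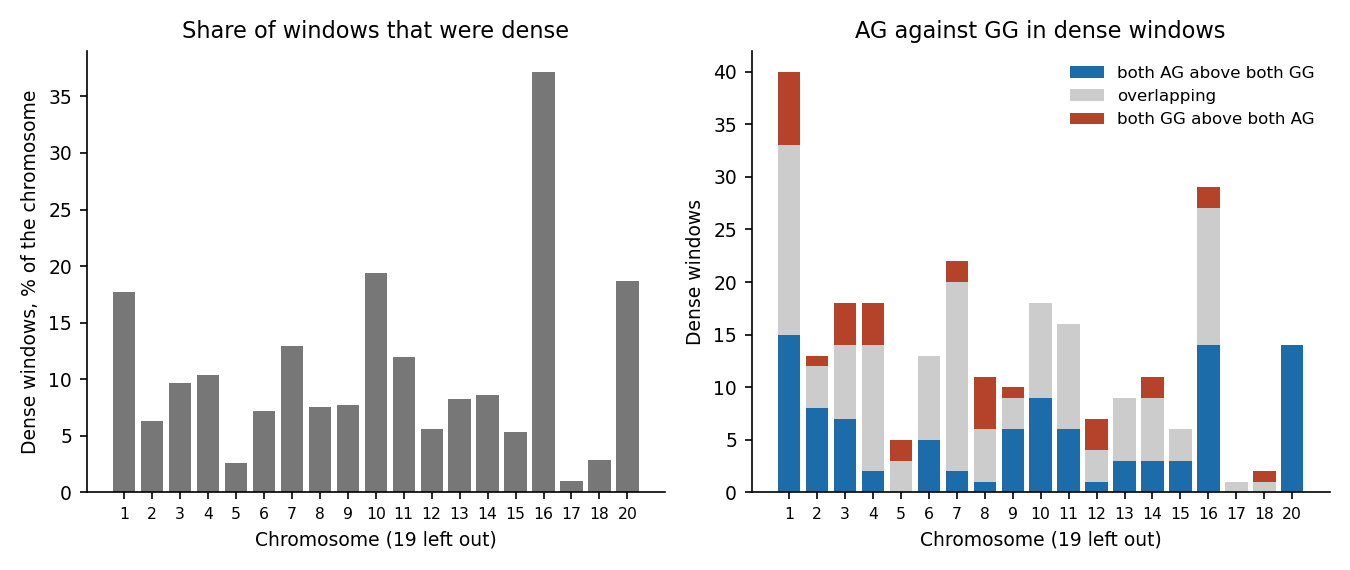
On the left, the percentage of each chromosome's windows that were dense, highest on chromosome 16 (37.2%) and lowest on chromosome 17 (1.04%). On the right, the number of dense windows by whether both AG libraries were above both GG libraries (blue, 14 of 14 on chromosome 20), both below (red, 5 on chromosome 8) or overlapping (grey).

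Differences within dense windows were small. By limma with Benjamini-Hochberg adjustment over 2682 windows, 0 of 263 dense windows and 0% of all windows passed an adjusted p of 0.05, the lowest adjusted p of a dense window being 0.151. At an unadjusted p of 0.05, 6 dense windows (2.28%) passed, all higher in AG, against 18% of all windows (6.67% higher in AG and 11.3% in GG). Differences over 1.5-fold occurred in 10 dense windows, all higher in AG, against 10.6% of all windows higher in AG and 19.3% higher in GG by that much. Replicates were also closer, with a median SD within groups of 0.15 (log2) in dense windows and 0.26 over all. With a variance trend, limma called 15 dense windows, 14 higher in AG and 1 in GG, beside 3.36% of all windows higher in AG and 4.77% higher in GG. With an offset of 10000 bp it called 1 dense window, higher in AG, beside 1.38% of all windows higher in AG and 3.69% higher in GG. In the limma fit with a variance trend, 60 of 263 dense windows and 627 of all 2682 windows had an unadjusted p under 0.05. These 2 shares were close to each other, so the low share of dense windows at this p depended on the fit.

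The dense window with the smallest p was chromosome 16 from 16000001 to 17000000, also the one with 11 AG-only regions. Its covered length was 87.6 and 90.2 kb in AG embryos and only 60.7 and 44.1 kb in GG embryos, so the groups did not overlap even before scaling. The log2 difference was 1.13 (SE 0.25, 2.18-fold), the only one over 2-fold among dense windows, with a limma adjusted p of 0.151. Next came chromosome 20 from 59000001 to 60000000, where AG libraries had 65.2 and 83.4 kb, GG libraries 54.9 and 54.0 kb, and the log2 difference was 0.79 (SE 0.22). On chromosome 16, the window from 2000001 to 3000000 had 66.2 and 76.8 kb in AG libraries, while GG libraries had 58.6 and 43.9 kb (a log2 difference of 0.84, SE 0.24). The last 2 of this rank were on chromosome 20, from 74000001 (log2 0.80) and from 2000001 (log2 0.65).

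In the opposite direction, chromosome 4 from 15000001 to 16000000 ranked first. There AG libraries had 51.1 and 50.9 kb, GG libraries 98.4 and 96.7 kb, with a log2 difference of -0.57 (SE 0.24) and a limma adjusted p of 0.309. In the window from 85000001 to 86000000 of chromosome 3, AG libraries had 42.8 and 53.5 kb and GG libraries 103 and 77.1 kb (log2 -0.53). Chromosome 18 from 10000001 to 11000000, the window with 18 GG-only and 0 AG-only regions, had 43.0 and 55.4 kb in AG libraries, GG libraries having 106 and 76.1 kb (log2 -0.51). Chromosome 1 from 113000001 (log2 -0.46) and chromosome 5 from 51000001 (log2 -0.44) followed. In all 5, both GG libraries lay above both AG libraries.

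The strongest and the widest hotspots were divided between dense and remaining windows in different ways in AG and GG libraries. Of the highest-scoring 1% of each list outside chromosome 19, 26.2% and 25.8% lay in dense windows in AG replicates 1 and 2, and 31.6% and 33.7% in GG replicates 1 and 2. With the 600 highest-scoring of each list, the shares were 26.2%, 23.2%, 29.2% and 31.7%, with means of 24.7 ± 2.12% in AG and 30.4 ± 1.77% in GG (SD, n = 2 libraries each). Of hotspots over 3000 bp wide the order was the reverse, with 40.3% and 40.4% in AG and 32.5% and 33.1% in GG. The GG lists held more hotspots of this width (3374 and 2903) than the AG lists (1462 and 1353), and with the 1000 widest of each list the means were 41.5 ± 0.919% and 34.3 ± 1.56%. In neither measure did the groups overlap. The two-sided exact permutation test gave p = 0.333 for each comparison, the smallest that 2 libraries against 2 can give. The same hotspots made up the covered length that chose the windows, and a wide hotspot adds more to it than a narrow one. The test therefore cannot tell a difference between groups from an effect of the choice. The comparisons of equal numbers of hotspots were added after the data were seen.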

How the data were processed

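DNase-seq lists of 4 libraries from rhesus macaque morulae were used, 2 of AG and 2 of GG embryos, with groups and replicate numbers taken from the titles in the labels. The score that the authors deposited for each hotspot has no stated scale, and served only for ranks and percentiles within a library's own list. The submitters' processing notes name rheMac8 as the build. As tools they list deepTools 3.3.1, SAMtools, Bowtie2 and Trim Galore, without their roles. Which program called hotspots is not given in the sources used here. Without read counts, depth stays unknown and counting intervals cannot be had.

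Hotspots on chromosomes 1 to 20 were used, and hotspots and merged regions were placed in windows by their midpoint. Covered bp was split at window borders. For the AG against GG comparison, covered bp plus 1000 was divided by its mean in the library and put on the log2 scale, in windows whose mean over libraries reached 2000 bp, as all dense windows do by their choice. limma's lmFit and eBayes, with neither trend nor robust options and without a replicate block, were run on all windows. Groups of 2 libraries were compared by exact permutation. The window fit was tested on simulated data: among 2682 windows, recovery was 22.4% at a log2 change of 1, 67.2% at 2 and 84.8% at 3, and it called 12 of 2482 unchanged.

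Members, windows and lists were chosen with earlier results of these data known. Named were the 10 densest windows, the 3 on either side of the limit, the 5 of smallest limma p per direction, and the regions with the best rank in their weakest library (5 in all libraries, 3 AG-only, 3 GG-only). Windows with the most AG-only or GG-only regions were named after their values were seen. Alternatives were other window sizes, starts and shares, hotspot number, higher-scoring or shortened lists, left-out replicates, other offsets, minimums and scalings, a variance trend, a replicate block and other overlaps. In the AG against GG comparison, hotspot number and higher-scoring or shortened lists chose the dense windows again. Left-out replicates, offsets, minimums, scalings and centring kept the original ones, as did all counts of merged regions. Equal covered length, no scaling, centring within chromosomes, choice from one replicate number and equal numbers of strong or wide hotspots were added after the data were seen. Software was limma 3.58.1 under R 4.3.3, and Python 3.11.15 with scipy 1.17.1, pandas 2.3.3, numpy 2.4.6 and matplotlib 3.10.9.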

Additional observations from a re-analysis of the deposited data

How the results depend on the processing

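The AG minus GG difference in the share of covered length, the higher score percentile and the higher share found again inside dense windows kept their direction under every alternative run, with ranges of 0.439 to 4.52 percentage points, 9.94 to 14.1 percentile points and 14.9 to 18.8 percentage points. Leaving out 1 library gave 0.781 to 4.52, 12.0 to 13.0 and 16.2 to 17.3. For the share of covered length, these values kept the windows chosen from all 4 libraries. The lowest difference in this share, 0.439, came at equal covered length. There only AG replicate 1 (27.6%) was above the GG libraries (26.6% and 25.9%), and AG replicate 2 (25.7%) was below both. Windows common to the AG and the GG choice were 78.3% with the highest 20% kept. Limma called 1 dense window, higher in AG, with an offset of 10000 bp and 15 with a variance trend. Groups did not overlap in 66 dense windows with the highest 5% kept, in 274 with 20%, and in 179 to 222 of 263 with 1 library left out, where fewer libraries make separation easier. The median log2 difference was 0.25 with median scaling, 0.027 at equal covered length, 0.0043 where replicate 1 chose and replicate 2 was compared, -0.23 without scaling, and 0.030 to 0.23 with 1 library left out. Merged regions in all 4 libraries were 12.0% when merged within 150 bp, 12.6% with lists of equal number, and 14.3% and 16.2% in the higher-scoring 50% and 25%.

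Sign changes occurred in 17 values of 20 named windows. Of these, 6 came from scalings that by construction move every window by one constant, so they say nothing of single windows. Unscaled, all 20 moved by -0.36, and the values became -0.14 for chromosome 16 at 7000001, -0.10 for chromosome 7 at 41000001, -0.11 for chromosome 1 at 25000001, -0.24 for chromosome 13 at 75000001 and -0.19 for chromosome 14 at 8000001. With median scaling all moved by 0.12, and chromosome 4 at 31000001 became 0.074. Centring moves all windows of a chromosome by one constant, and gave 4 more: chromosome 16 at 7000001 (-0.11), chromosome 4 at 31000001 (0.40), chromosome 20 at 28000001 (-0.079) and chromosome 5 at 51000001 (0.10). The other 7 were chromosome 4 at 31000001 by hotspot number (0.099) and without AG replicate 2 (0.034), chromosome 14 at 11000001 by hotspot number (0.017), chromosome 13 at 75000001 without AG replicate 1 (-0.13, and 0.37 without AG replicate 2), and, at equal covered length, chromosome 16 at 7000001 (-0.0042), chromosome 13 at 75000001 (-0.028) and chromosome 14 at 8000001 (-0.056). For these 7 the cause was not tested.

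The labels share replicate numbers between groups but do not say that these pair the samples. Deviations of same-numbered libraries correlated at -0.084 over all 2682 windows and at 0.052 over the dense windows. With the replicate block, limma called 0 dense windows, and 4 had an unadjusted p under 0.05, against 6 without it.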

Other observations

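Chromosome 19, left out of the choice, would have supplied many dense windows: 36 of its 54 windows (66.7%) were at or above the density of the lowest dense window when scaled in the same way, with a median of 2.31 times the mean. Both AG libraries were above both GG libraries in 51 of the 54 and below in 0, with a median log2 difference of 0.56. The dense windows within 5 Mb of a chromosome end, 26 in all, were higher in both AG libraries in 16 cases and in both GG libraries in 2, with a median log2 difference of 0.29. Over all 209 windows outside chromosome 19 that lie so near an end, 50.2% were higher in AG and 16.3% in GG, also with a median of 0.29. Among the 237 dense windows further inside, the counts were 83 and 32 and the median 0.10, against 20.3% and 30.6% and a median of -0.085 over all 2419 windows there. Whether dense windows near ends differ from other windows near ends was not tested.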
